A study of Mus musculus with 202 samples.

Results

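The 7 genes described here are 3 EGF receptor family genes (Egfr, Erbb2 and Erbb3) and 4 genes for their ligands (Areg, Ereg, Hbegf and Tgfa), chosen by symbol. All 7 were found in a table of 28987 genes, and their level and the share of cells with a value were compared between E-cadherin negative (Ecad-) and E-cadherin positive (Ecad+) cancer cells. Both groups came from 1 cultured pancreatic cancer line (strain KPC in the labels), which was established from a liver metastasis of a male mouse. KPC tumours arise from mutations switched on in the pancreas by a Cre, which both groups therefore share. The labels name no separate allele, treatment, age or animal for either group. The cells were grown in serum-containing medium, detached with trypsin, stained with an antibody to E-cadherin and separated by flow sorting, and single cells were then captured for RNA sequencing. There were 98 Ecad- and 104 Ecad+ libraries. Since 5 pairs of libraries were nearly identical, each pair was averaged, which left 97 Ecad- and 100 Ecad+ cells. Each sorted group is 1 sample, so the values below carry no test between groups, and the SD over cells is a spread among cells, not an error over cultures.

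EGF receptor family proteins are receptor tyrosine kinases of epithelial cells that work in pairs. EGFR (from Egfr) binds amphiregulin (from Areg), TGF-alpha (from Tgfa), heparin-binding EGF-like growth factor (from Hbegf) and epiregulin (from Ereg). ERBB2 has no known ligand of its own and acts as the preferred partner of the others, and ERBB3 has little kinase activity, binds neuregulins and couples to PI3K. The ligands are made as membrane-anchored precursors that metalloproteases cut loose.

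Keratin genes of duct and other simple epithelia were present in both groups. Krt19 averaged 290 TPM (transcript abundance scaled by length and by the library's total) in Ecad- cells and 899 TPM in Ecad+ cells, and Krt8 averaged 472 and 992 TPM. Of 7 immune and 7 fibroblast marker genes, Ptprc (the pan-leukocyte gene), Adgre1, Col3a1 and Lum were listed at 0 in every cell. Cd68, a lysosomal gene used as a macrophage marker, averaged 30.0 TPM in Ecad- cells and 6.35 TPM in Ecad+ cells. Cdh1, the gene for E-cadherin, averaged 16.1 TPM in Ecad- cells and 37.9 TPM in Ecad+ cells, and was above 0 in 80.4% and 100% of them. A median of 8694 genes per Ecad- cell and 10338 per Ecad+ cell were above 0. The median mitochondrial part of TPM was 8.78% in Ecad- cells and 30.0% in Ecad+ cells, and it was less than 1% in 40 of 97 Ecad- cells and 1 of 100 Ecad+ cells. Ddit3, the stress gene that encodes CHOP, averaged 562 TPM in Ecad- cells and 31.1 TPM in Ecad+ cells. The part of these differences in the results below was not tested except by leaving out the cells with under 1% mitochondrial TPM, whose values are given.

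On mouse build GRCm38 (mm10, annotation GENCODE M21), Egfr lies at chr11:16752203-16918158 on the plus strand, with 28 exons in its longest transcript. Erbb2 lies on the same chromosome at chr11:98412470-98437716 (plus strand, 27 exons), and Erbb3 at chr10:128567523-128589652 (minus strand, 28 exons). Areg (chr5:91139599-91148432, 6 exons) and Ereg (chr5:91074622-91093646, 5 exons) are neighbours on the plus strand with 45952 bases between them, and Tgfa lies at chr6:86195223-86275719 (plus strand, 6 exons). Other ligand genes flank that pair. Epgn ends 39406 bases before Ereg starts, and Btc lies 208828 bases beyond the end of Areg. The libraries do not mark strand, so reads of Egfr and its antisense gene Egfros, of Ereg and Gm19610, and of Tgfa and Gm43917 could not be told apart where they overlap. The same holds for Erbb2 with Mien1 and with Gm25048.

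A promoter window of 300 bases was given for 4 of the 7 genes (Egfr, Erbb2, Areg and Tgfa) in a RefSeq table of build GRCm38.p6, running from 250 bases before the start of the gene to 50 after it. That start is the RefSeq one, and for Erbb2 and Tgfa it differs from the GENCODE start given above. Areg is printed because it was the ligand with the highest mean level and the one that varied with a second member over cells, and Erbb2 because its share of cells differed most between the groups. Both lie on the plus strand, Areg at chr5:91139349-91139648 and Erbb2 at chr11:98412234-98412533, and both are written 5′ to 3′ with motif matches in capitals.
Areg: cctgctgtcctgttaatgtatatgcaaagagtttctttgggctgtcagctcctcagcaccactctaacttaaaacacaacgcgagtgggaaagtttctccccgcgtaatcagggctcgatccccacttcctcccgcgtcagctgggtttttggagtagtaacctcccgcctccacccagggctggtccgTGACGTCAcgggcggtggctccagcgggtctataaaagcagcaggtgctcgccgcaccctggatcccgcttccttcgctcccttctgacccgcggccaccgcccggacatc
Erbb2: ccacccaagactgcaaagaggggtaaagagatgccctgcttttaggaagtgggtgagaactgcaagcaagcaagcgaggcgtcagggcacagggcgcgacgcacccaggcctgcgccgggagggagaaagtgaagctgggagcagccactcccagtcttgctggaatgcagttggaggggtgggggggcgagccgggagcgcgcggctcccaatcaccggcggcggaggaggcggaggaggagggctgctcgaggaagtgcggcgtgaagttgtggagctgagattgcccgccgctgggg
The capitals mark a CRE (cAMP response element, letters TGACGTCA, a palindrome), at bases 190 to 197 of the Areg window, with 53 bases between it and the start of the gene. Of 32851 promoters in the table, 588 (1.79%) hold a CRE on either strand. The AP-1 motif TGANTCA (2565 promoters, 7.81%) and the CEBP-ATF motif TGATGNAAT (317 promoters, 0.965%), also searched on both strands, had no match in the Areg window. None of the 3 motifs had a match in the Erbb2, Egfr or Tgfa windows. A match is a string of letters and was not tested for binding.

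All 7 genes had a lower mean level in Ecad- than in Ecad+ cells, against 31.5% of the 14885 genes that were above 0 in at least 10% of cells. Levels are arithmetic means of TPM over cells, and the ratio is log2 of the Ecad- mean plus 1 over the Ecad+ mean plus 1, which understates the change of genes near or under 1 TPM. The median ratio of the 7 genes was -0.67, whereas the median was 0.16 over those 14885 genes. A floor of a mean of 5 TPM over all cells was passed by 3 of the 7 (Areg, Ereg and Hbegf), and the median of the 7227 genes above it was 0.31. Ereg passed it only through its Ecad+ mean of 8.31 TPM, as its Ecad- mean was 2.50 TPM. Erbb2 and Ereg had ratios at or below -1, as did 2.81% of the 14885 genes. Leaving out each library set in turn, Erbb2 stayed between -1.32 and -1.22 and Ereg between -1.81 and -1.05.

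Among the receptors, Erbb2 differed most. Its per-cell level ran from 0 to 8.55 TPM with a median of 0 in Ecad- cells, and from 0 to 22.4 TPM with a median of 2.54 TPM in Ecad+ cells. The ranges overlap, but the upper quartile of Ecad- cells, 0.445 TPM, lay below the Ecad+ median. The mean was 0.929 ± 1.96 TPM in Ecad- cells and 3.73 ± 4.54 TPM in Ecad+ cells (SD over 97 and 100 cells), a log2 ratio of -1.30. The libraries fall into 3 sets by a suffix of their names, and Erbb2 was lower in each, with ratios of -1.21, -1.26 and -1.37. No other member kept its ratio so close across the sets.

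Egfr, the receptor that all 4 ligands bind, was low in both groups. It had a median of 0.0134 TPM and a maximum of 29.0 TPM in Ecad- cells, and a median of 0.0653 TPM and a maximum of 29.4 TPM in Ecad+ cells. Means were 0.942 ± 3.89 TPM in Ecad- cells and 1.81 ± 4.30 TPM in Ecad+ cells (SD over 97 and 100 cells), a log2 ratio of -0.53. A few cells carried these means. The 10 highest cells held 93.9% of all Egfr TPM in the Ecad- group and 69.0% in the Ecad+ group. By library set the ratio was -0.75, -1.39 and 0.58, so the direction was not shared by the 3 sets.

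Erbb3 ran from 0 to 12.0 TPM with a median of 0 in Ecad- cells, and from 0 to 7.88 TPM with a median of 0.875 TPM in Ecad+ cells. Over cells the mean of Erbb3 was 0.867 ± 2.22 TPM in Ecad- cells and 1.70 ± 2.05 TPM in Ecad+ cells (SD over 97 and 100 cells), a log2 ratio of -0.53. The highest single values were thus in Ecad- cells while the middle of the distribution was higher in Ecad+ cells. The set ratios were -0.66, 0.31 and -1.06. In the second set the Erbb3 mean was 1.16 TPM in Ecad- cells and 0.741 TPM in Ecad+ cells, although the share of cells above 0 was 28.1% and 61.5%.

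Areg, which encodes amphiregulin, a low-affinity ligand, had the highest mean level of the 7 in both groups. It ran from 0 to 527 TPM with a median of 9.52 TPM in Ecad- cells, and from 0 to 447 TPM with a median of 42.3 TPM in Ecad+ cells. On average it reached 36.4 ± 76.8 TPM in Ecad- cells and 58.4 ± 65.8 TPM in Ecad+ cells (SD over 97 and 100 cells), a log2 ratio of -0.67. The highest cell was in the Ecad- group, and the quartiles were lower there, with 0 and 33.3 TPM in Ecad- cells and 15.3 and 73.8 TPM in Ecad+ cells. Within the sets the ratio was -0.04, -0.68 and -1.08, with near-equal means in the first set, 43.7 TPM in Ecad- cells and 45.0 TPM in Ecad+ cells.

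Hbegf, which encodes a ligand that also binds heparan sulphate, ran from 0 to 411 TPM with a median of 11.2 TPM in Ecad- cells, and from 0.104 to 166 TPM with a median of 36.0 TPM in Ecad+ cells. The Hbegf mean was 26.4 ± 50.2 TPM in Ecad- cells and 46.7 ± 36.1 TPM in Ecad+ cells (SD over 97 and 100 cells), a log2 ratio of -0.80. Within the sets it stood at -1.29, -0.68 and -0.54, so Hbegf was lower in all of them.

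Ereg, the epiregulin gene, had the lowest ratio of the 7 at the pseudocount of 1 TPM used here. With a pseudocount of 0.1 TPM, Erbb2 was the lower, at -1.90 against -1.69 for Ereg. Ereg ran from 0 to 29.4 TPM with a median of 0 in Ecad- cells, and from 0 to 52.2 TPM with a median of 5.40 TPM in Ecad+ cells. Mean levels were 2.50 ± 6.11 TPM in Ecad- cells and 8.31 ± 9.32 TPM in Ecad+ cells (SD over 97 and 100 cells), a log2 ratio of -1.41. The set ratios were -0.72, -1.73 and -1.90.

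Tgfa ran from 0 to 20.1 TPM with a median of 0 in Ecad- cells, and from 0 to 15.4 TPM with a median of 2.62 TPM in Ecad+ cells. Tgfa averaged 2.75 ± 4.41 TPM in Ecad- cells and 3.62 ± 3.55 TPM in Ecad+ cells (SD over 97 and 100 cells), a log2 ratio of -0.30. This rested on the third library set, where the mean was 0.730 TPM in Ecad- cells and 3.09 TPM in Ecad+ cells. In the first set the means were 3.69 and 3.52 TPM for Ecad- and Ecad+ cells, in the second they were 3.90 TPM for both, and without the third set the ratio was 0.016. That set also held 22 of the Ecad- libraries with under 1% mitochondrial TPM, against 6 in the first and 12 in the second.

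**Figure D1:**
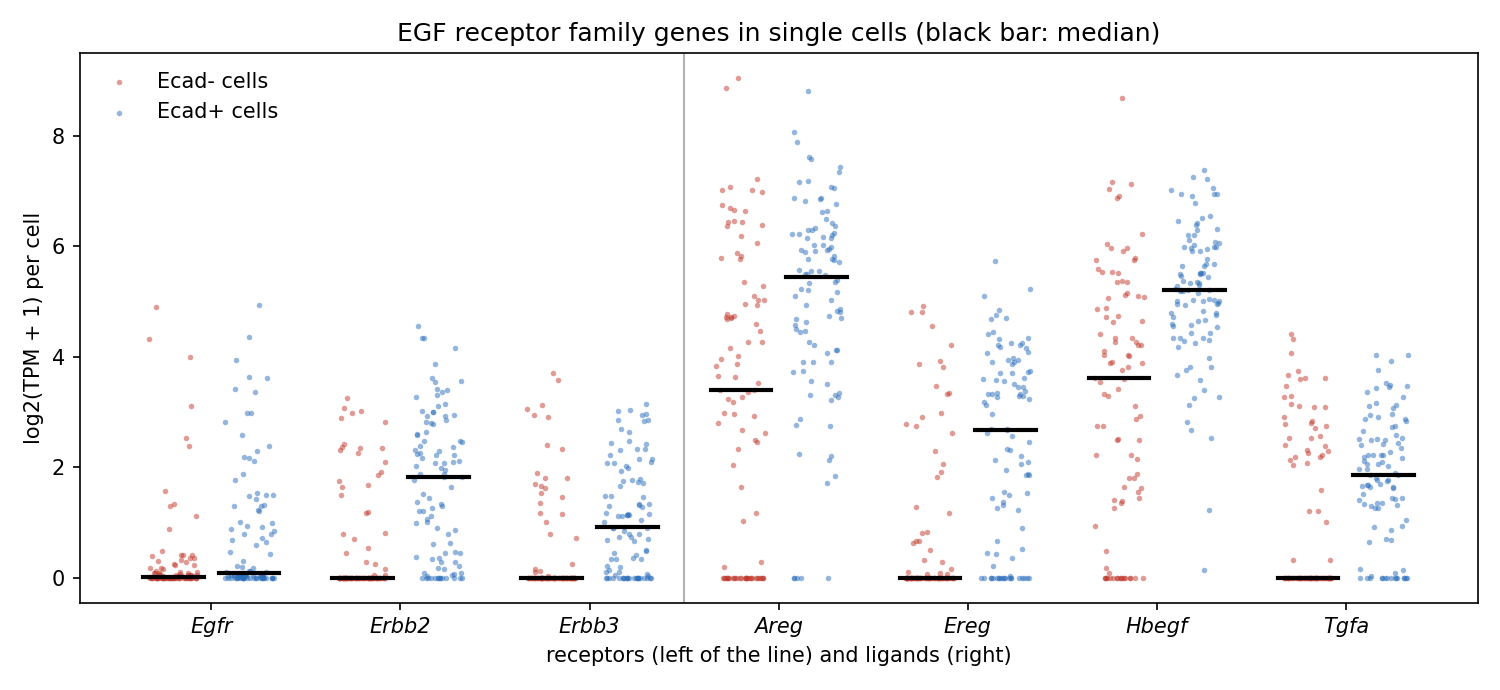
Level of each receptor gene (left of the line) and ligand gene (right) in single cells as log2(TPM + 1), with 97 Ecad- cells left of 100 Ecad+ cells for each gene. Each point is a cell and the black bar is the median, which is at 0 in Ecad- cells for Erbb2, Erbb3, Ereg and Tgfa.

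Across the sets, 4 of the 7 genes (Erbb2, Areg, Ereg and Hbegf) were lower in all 3, against 13.4% of the 14885 genes. Leaving out the cells with under 1% mitochondrial TPM, 57 Ecad- and 99 Ecad+ cells remained. The ratio was then -1.02 for Erbb2, -0.84 for Egfr and -0.23 for Erbb3. Among the ligands it was -1.12 for Ereg, -0.85 for Hbegf, -0.70 for Areg and -0.07 for Tgfa, and the median of all genes above the floor was 0.12. All 7 ratios therefore kept their sign, while those of Erbb3 and Tgfa moved closest to 0.

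**Figure D2:**
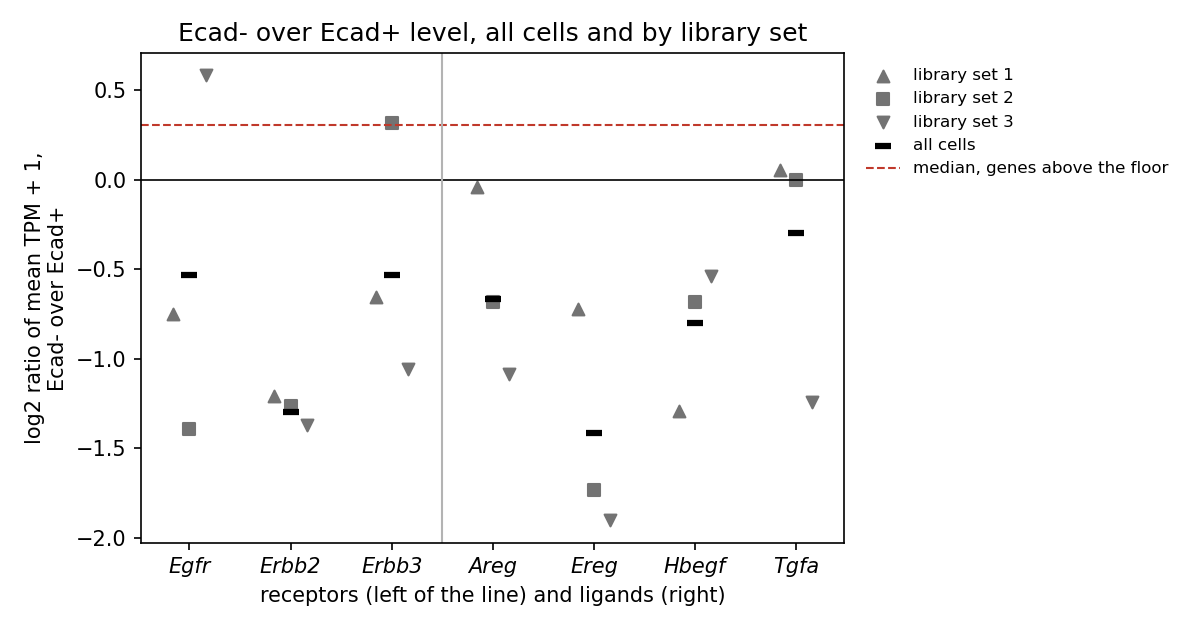
Log2 ratio of mean TPM + 1, Ecad- over Ecad+, for each gene over all cells (black bar) and within each of the 3 library sets (grey symbols), with the median of the 7227 genes above the floor as a dashed line at 0.31. Erbb2 lies between -1.21 and -1.37 in the 3 sets, whereas the Egfr, Erbb3 and Tgfa sets fall on both sides of 0.

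TPM is scaled by transcript length, so the levels of the 7 genes can be ordered. In Ecad- cells the order of means was Areg, Hbegf, Tgfa, Ereg, Egfr, Erbb2 and Erbb3, and the gap between each gene and the next was smaller than the larger of their SDs over cells. In Ecad+ cells it was Areg, Hbegf, Ereg, Erbb2, Tgfa, Egfr and Erbb3, and the gap between Hbegf at 46.7 TPM and Ereg at 8.31 TPM was wider than the SD of either gene over cells. The receptors summed to a mean of 2.74 TPM per Ecad- cell and 7.24 TPM per Ecad+ cell, with medians of 0.234 and 6.11 TPM and a log2 ratio of -1.14. The 4 ligands summed to a mean of 68.0 TPM per Ecad- cell and 117 TPM per Ecad+ cell, with medians of 35.7 and 99.8 TPM and a log2 ratio of -0.77. Ligand transcripts thus outnumbered receptor transcripts in both groups, by 24.8 to 1 in Ecad- cells and 16.2 to 1 in Ecad+ cells. The receptor sum was lower in all 3 sets (ratios -1.22, -1.20 and -0.95), and so was the ligand sum (-0.53, -0.75 and -0.89).

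The share of cells with a value was lower in Ecad- cells for all 7 genes, which was also so for 82.7% of the 14885 genes, and the size of the gap varied between them. For Erbb2, 31 of 97 Ecad- cells had a value (32.0%, with an exact 95% interval of 22.9 to 42.2%), as did 86 of 100 Ecad+ cells (77.6 to 92.1%). For Erbb3 the share was 27.8% among Ecad- cells (19.2 to 37.9%) and 77% among Ecad+ cells (67.5 to 84.8%). These are Clopper-Pearson intervals on counts of cells, for counting error only, and they do not cover variation between cultures. Reads were not counted in this way, since amplified reads without molecular identifiers are not independent molecules. Both receptors were therefore listed at 0 in most Ecad- cells and above 0 in most Ecad+ cells.

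Among the ligands, the share for Ereg was 36.1% among Ecad- cells (26.6 to 46.5%) and 80% among Ecad+ cells (70.8 to 87.3%). For Tgfa it was 42.3% among Ecad- cells (32.3 to 52.7%) and 85% among Ecad+ cells (76.5 to 91.4%). Areg had a value in 70.1% of the Ecad- group (60.0 to 79.0%) and 95% of the Ecad+ group (88.7 to 98.4%). Hbegf had one in 80 of 97 Ecad- cells (82.5%, 73.4 to 89.4%) and in all 100 Ecad+ cells (96.4 to 100%). For Erbb2, Erbb3 and these ligands, 6 genes in all, the Ecad- interval lay below the Ecad+ interval without overlap. Since the intervals cover counting error over cells only, this is not a test between the groups. How many of the other genes had intervals without overlap was not counted. The Egfr intervals overlap, with shares of 55.7% among Ecad- cells (45.2 to 65.8%) and 73% among Ecad+ cells (63.2 to 81.4%).

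A value above 0 can be very small. Col1a1, a fibroblast collagen gene that these cells should lack, was above 0 in 58 Ecad- and 66 Ecad+ cells but above 1 TPM in 0 of them. The same count at 1 TPM was therefore made for the members. Egfr was above 1 TPM in 10 of 97 Ecad- cells and 29 of 100 Ecad+ cells, so most of its values above 0 lay below 1 TPM, as those of Col1a1 did. Erbb2 was above 1 TPM in 21 Ecad- cells and 64 Ecad+ cells, and Erbb3 in 20 and 49. Areg passed 1 TPM in 66 Ecad- cells and 95 Ecad+ cells, Ereg in 22 and 72, Hbegf in 76 and 99, and Tgfa in 38 and 75. At 10 TPM the receptors were rare in both groups, with Erbb2 in 0 of 97 Ecad- cells, which allows a share of up to 3.09% by the rule of 3 cells in the total (3.73% as the upper end of the exact interval), and in 8 of 100 Ecad+ cells. Erbb3 passed 10 TPM in 2 Ecad- cells and 0 Ecad+ cells, and Tgfa in 9 and 7, so that neither was lower in Ecad- cells at this threshold.

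**Figure D3:**
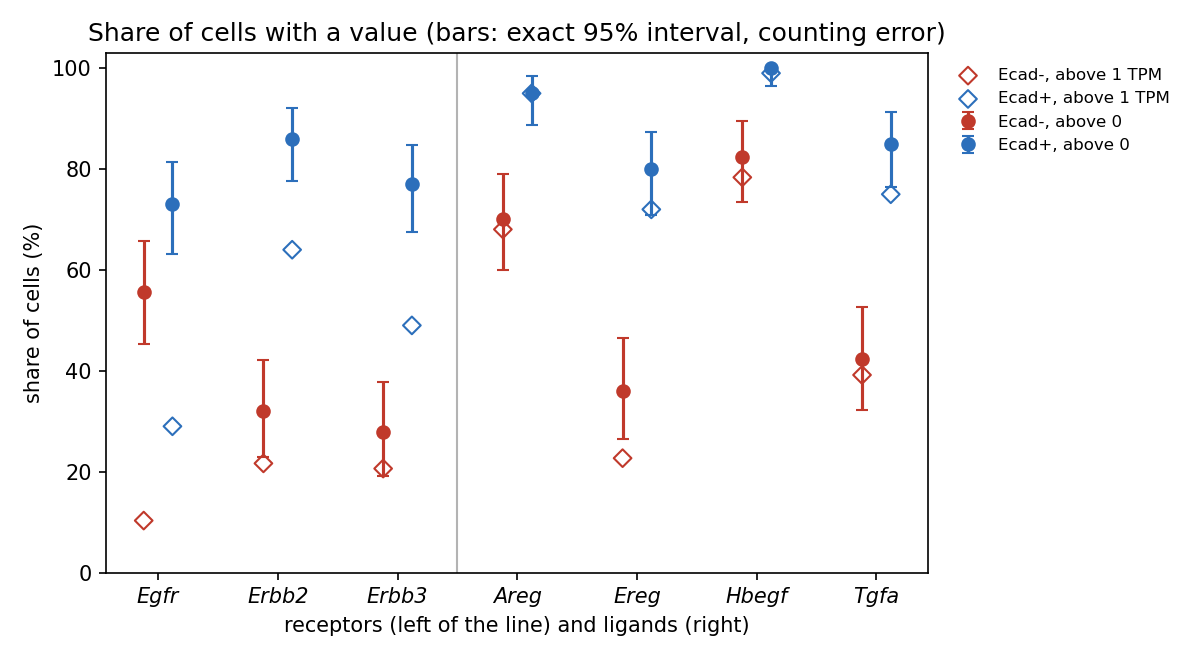
Share of 97 Ecad- cells (red) and 100 Ecad+ cells (blue) in which each gene was above 0 (filled circles with exact 95% intervals, counting error only) or above 1 TPM (open diamonds). Shares are lower in Ecad- cells for all 7 genes at both thresholds, as they are for 82.7% (above 0) and 70.4% (above 1 TPM) of the 14885 genes, and the intervals overlap for Egfr.

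The gap in share between Ecad- and Ecad+ cells was -54.0 percentage points for Erbb2, -49.2 for Erbb3, -43.9 for Ereg, -42.7 for Tgfa, -24.9 for Areg, -17.5 for Hbegf and -17.3 for Egfr. A gap of at least 20 points below Ecad+ cells was found for 5 of the 7 genes, against 24.5% of the 14885 genes, whose median gap was -9.31 points. Ecad- cells had fewer genes above 0 in general, and a gap depends on a gene's level, so genes of similar mean are the closer background. Of 5306 genes with a mean of 1 to 10 TPM over all cells, 41.3% were lower by 20 points or more, and 0.452% had a gap as low as that of Erbb2. The share was 1.15% for Erbb3, 3.00% for Ereg, 3.62% for Tgfa and 48.3% for Egfr, so Egfr stood near the middle of genes at its level. Of 4208 genes with a mean of 10 to 100 TPM, 16.3% had a gap as low as that of Areg and 31.5% as low as that of Hbegf, where 24.5% were lower by 20 points or more. The Areg gap was -14.3 points without the third library set.

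Leaving out the cells with under 1% mitochondrial TPM, Erbb2 was above 0 in 43.9% of Ecad- cells and 85.9% of Ecad+ cells, and Erbb3 in 43.9% and 77.8%. Ereg was then above 0 in 45.6% of Ecad- cells and 79.8% of Ecad+ cells, Tgfa in 54.4% and 85.9%, Areg in 75.4% and 94.9%, Hbegf in 86.0% and 100%, and Egfr in 50.9% and 72.7%. The shares stayed lower in Ecad- cells for all 7 genes, as for 82.6% of the 14885 genes in the same cells, and the Areg gap was -19.5 points. The gaps were narrower for Erbb2, Erbb3, Ereg, Tgfa, Areg and Hbegf and wider for Egfr.

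**Figure D4:**
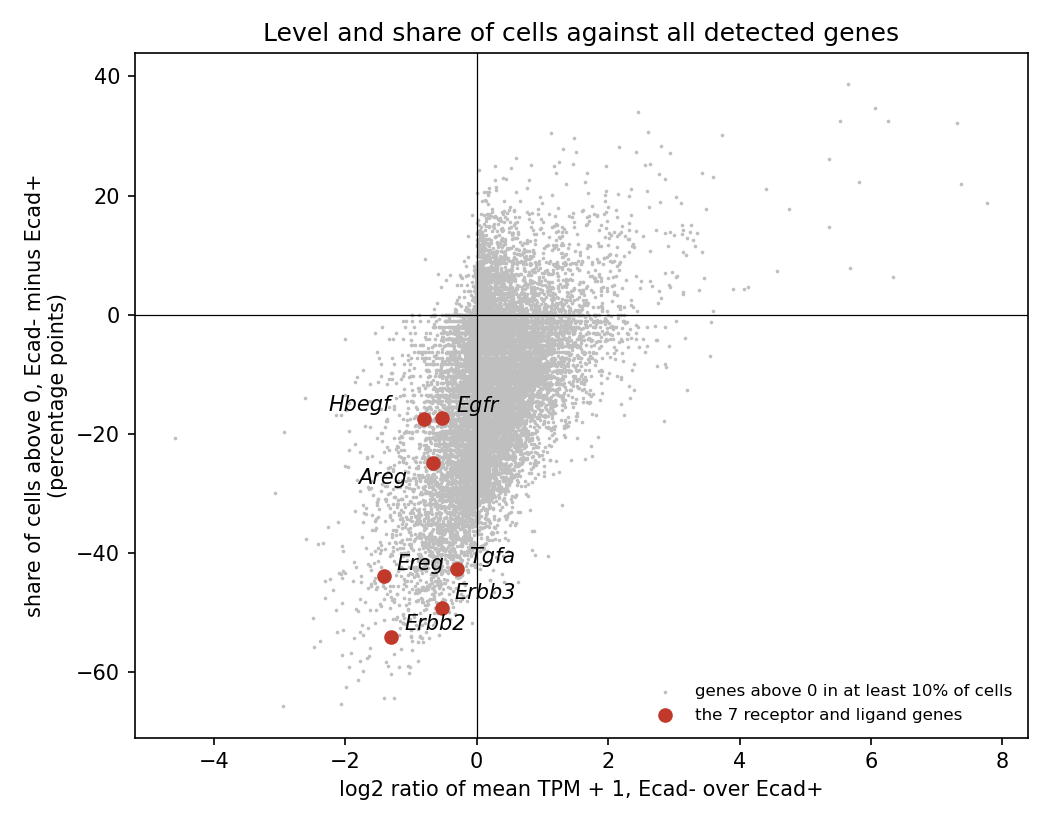
Each grey point is 1 of the 14885 genes above 0 in at least 10% of cells, by its log2 ratio of mean TPM + 1 (Ecad- over Ecad+, horizontal) and its difference in share of cells above 0 (Ecad- minus Ecad+, percentage points, vertical). The 7 receptor and ligand genes (red) all lie at the lower left, below 0 on both axes, with Erbb2 at -1.30 and -54.0 points.

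Means were also taken over only those cells in which a gene was above 0. Tgfa averaged 6.51 TPM in the 41 Ecad- cells with a value and 4.26 TPM in the 85 such Ecad+ cells, a log2 ratio of 0.51, and Erbb3 averaged 3.12 and 2.20 TPM in such Ecad- and Ecad+ cells, a ratio of 0.36. The other 5 were lower in Ecad- cells by this measure, against 13.9% of the 14885 genes. Hbegf averaged 32.0 TPM in Ecad- cells with a value and 46.7 TPM in Ecad+ cells (ratio -0.53), and Ereg 6.92 and 10.4 TPM (ratio -0.52). The ratio was -0.45 for Erbb2, -0.37 for Egfr and -0.24 for Areg. The median of this ratio over the 14885 genes was 0.48, so 6 of the 7 genes lay below it.

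Fewer Ecad- than Ecad+ cells held several members at once. Whether this goes beyond the lower share of each gene alone was not tested, and no such counts were made for other genes. Cells without any receptor above 0 numbered 25 of 97 in the Ecad- group (25.8%, 17.4 to 35.7%) and 1 of 100 in the Ecad+ group. All 3 receptors were above 0 together in 11 Ecad- cells and 44 Ecad+ cells. Erbb2 and Erbb3, whose proteins form a signalling pair, were above 0 together in 18 Ecad- cells (18.6%) and 67 Ecad+ cells, and above 1 TPM together in 9 and 35. All 4 ligands were above 0 in 15 Ecad- cells (15.5%) and 68 Ecad+ cells, and no ligand in 6 and 0. A cell with a ligand above 1 TPM but no receptor above 1 TPM was found 51 times among Ecad- cells (52.6%, 42.2 to 62.8%) and 16 times among Ecad+ cells. At least 1 receptor and 1 ligand were above 1 TPM in 38 Ecad- cells (39.2%) and 84 Ecad+ cells. A value of 0 in one cell says only that the gene was listed at 0, at a read depth that TPM does not keep.

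The ligand with the highest TPM in a cell was nearly always Areg or Hbegf. Of 91 Ecad- cells with a ligand, Hbegf was highest in 47 and Areg in 39, and of 100 Ecad+ cells Hbegf was highest in 42 and Areg in 55. The intervals for Areg, 32.5 to 53.7% of such Ecad- cells and 44.7 to 65.0% of Ecad+ cells, overlap. The highest receptor differed more. Erbb2 was the highest in 20 of 72 Ecad- cells with a receptor (27.8%, 17.9 to 39.6%) and in 54 of 99 Ecad+ cells (54.5%, 44.2 to 64.6%). Egfr was highest in 38 of those Ecad- cells (52.8%, 40.7 to 64.7%) and 21 Ecad+ cells (21.2%, 13.6 to 30.6%), although it passed 1 TPM in only 10 Ecad- cells in all.

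Over cells within a group, the members varied largely on their own. Across 21 pairs of members the median Spearman rho was 0.13 in Ecad- cells (from -0.04 to 0.48) and 0.03 in Ecad+ cells (from -0.23 to 0.51). These are descriptions over cells of 1 sample, which share library sets and differ in depth, and they carry no test. Areg and Ereg, the neighbours on chromosome 5, had a rho of 0.45 over 97 Ecad- cells and 0.51 over 100 Ecad+ cells. It was 0.40, 0.57 and 0.29 in the 3 sets of Ecad- libraries and 0.38, 0.64 and 0.31 in those of Ecad+ libraries. Without the cells under 1% mitochondrial TPM it was 0.56 in Ecad- cells and 0.50 in Ecad+ cells. Over cells in which both were above 0, rho was 0.04 in 32 Ecad- cells and 0.34 in 78 Ecad+ cells, lower in both groups than over all cells. Ereg also had a rho of 0.35 in Ecad- cells and 0.27 in Ecad+ cells with the number of genes above 0.

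Among all genes above the floor, Ereg was the only one with a rho of at least 0.4 with Areg in both groups, and Areg the only one with Ereg. No gene reached that rho with Hbegf in both groups. The nearest by mean rho, picked outside the rule after its value was seen, was Junb, an AP-1 subunit gene, at 0.37 in Ecad- cells and 0.55 in Ecad+ cells. Erbb2 and Erbb3 had a rho of 0.48 in Ecad- cells and 0.06 in Ecad+ cells, with 0.72, 0.32 and 0.34 in the sets of Ecad- libraries and -0.08, -0.01 and 0.18 in those of Ecad+ libraries. In the same Ecad- cells Erbb3 had a rho of 0.47 with the mitochondrial percentage of TPM and -0.42 with Ddit3, against -0.20 and 0.12 in Ecad+ cells. Without the cells under 1% mitochondrial TPM, the rho of Erbb2 and Erbb3 was 0.44 in Ecad- cells and 0.08 in Ecad+ cells. Over cells in which both were above 0, it was 0.25 in 18 Ecad- cells and 0.16 in 67 Ecad+ cells, closer between the groups than over all cells.

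The other receptor and ligands of the family were mostly near 0. Erbb4, a neuregulin receptor gene, was listed at 0 in all cells, for which the exact intervals reach up to 3.73% of Ecad- cells and 3.62% of Ecad+ cells. Btc, the betacellulin gene beside Areg, was the only other ligand gene above the floor, with a mean of 11.9 TPM in Ecad- cells and 18.5 TPM in Ecad+ cells and values above 0 in 64.9% and 97% of them. Its ratio was -0.60, and -0.42, -0.77 and -0.58 in the 3 sets. Nrg1, which encodes an ERBB3 ligand, averaged 2.36 TPM in Ecad- cells and 0.613 TPM in Ecad+ cells, yet was above 0 in 21 Ecad- and 34 Ecad+ cells. Its ratio was 1.06 over all cells, -0.34 in the second set and 0.20 without the third, so the third set carried most of it. Nrg4 averaged 4.07 TPM in Ecad- cells and 4.35 TPM in Ecad+ cells, with 21 and 55 cells above 0. Egf averaged 0.132 TPM in Ecad- cells and 0.0837 TPM in Ecad+ cells, Nrg2 0.0644 and 0.0841 TPM, and Nrg3 0.526 and 0.483 TPM. Epgn was above 0 in 2 Ecad- cells and 0 Ecad+ cells.

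Of 74 other genes of the pathway, from ligand shedding to receptor traffic, 47 were above the floor. Their median ratio was 0.15, against 0.31 for all 7227 genes, with 30 below that value and 17 above it. Ratios at or above 1 were found for 4 of them, against 14.2% of the 7227 genes, and at or below -1 for 1, against 4.14%. Lower in all 3 sets were 7 of the 47, against 14.8%, and higher in all 3 were 16, against 44.9%. The share of cells above 0 was lower by at least 20 points for 12 of the 47, against 25.5%. The shares past these thresholds were thus near or below those of all genes.

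Among ligand-shedding genes, 5 of 7 were above the floor, with a median ratio of -0.04. Adam17, the main protease that frees these ligands, had means of 7.95 TPM in Ecad- cells and 7.94 TPM in Ecad+ cells, and is named after its values were seen. Adam9, another membrane metalloprotease, averaged 22.6 TPM in Ecad- cells and 30.4 TPM in Ecad+ cells (ratio -0.41), and Rhbdf1, an inactive rhomboid that helps ADAM17 mature, 8.99 and 7.63 TPM (ratio 0.21). The 7 adaptor genes above the floor had a median ratio of 0.06. Grb7, an adaptor of ERBB2 encoded close to it, averaged 9.68 TPM in Ecad- cells and 13.3 TPM in Ecad+ cells (ratio -0.42, and -0.10 without the cells under 1% mitochondrial TPM). Src, the membrane tyrosine kinase, averaged 8.78 TPM in Ecad- cells and 4.90 TPM in Ecad+ cells (ratio 0.73, and -0.06 without those cells).

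Nras, a RAS-family GTPase gene, averaged 53.8 TPM in Ecad- cells and 34.3 TPM in Ecad+ cells (ratio 0.63). The 9 RAS and MAPK genes above the floor had a median of 0.15. In the PI3K and AKT list (6 above the floor, median 0.40), Akt1 was lower, with 17.0 TPM in Ecad- cells and 32.4 TPM in Ecad+ cells. Its ratio was -0.89 over all cells, and -0.93, -0.69 and -0.97 in the 3 sets. Pdpk1, whose product activates AKT, averaged 21.3 TPM in Ecad- cells and 11.1 TPM in Ecad+ cells (ratio 0.88, and -0.13 without the cells under 1% mitochondrial TPM).

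Receptor inhibitor genes had a median ratio of -0.26 over the 6 above the floor. Cblc, an epithelial CBL-family ubiquitin ligase of EGFR, averaged 11.8 TPM in Ecad- cells and 28.0 TPM in Ecad+ cells, with values above 0 in 41.2% and 95% of them. Its ratio was -1.18 over all cells and -0.79, -0.62 and -2.55 in the 3 sets. It was -0.71 without the third set and -0.65 without the cells under 1% mitochondrial TPM. Ptpn12, a tyrosine phosphatase, averaged 48.9 TPM in Ecad- cells and 26.1 TPM in Ecad+ cells (ratio 0.88). Without the cells under 1% mitochondrial TPM, the Ptpn12 ratio was 1.04, past 1. The 13 receptor traffic genes above the floor had a median of 0.42 and held all 4 ratios past 1 over all cells. Stam2, an endosomal sorting gene, averaged 57.9 TPM in Ecad- cells and 20.0 TPM in Ecad+ cells (ratio 1.49, and 1.10, 1.61 and 1.70 in the sets), and Rab7, the late endosome GTPase gene, 319 and 138 TPM (ratio 1.20). The other two were Rab5a (ratio 1.16) and Stam (ratio 1.08). Without the cells under 1% mitochondrial TPM, the ratio was 1.05 for Stam2, 0.81 for Stam, 0.72 for Rab7 and 0.64 for Rab5a, and without the third set it was 0.88 for Stam. As differences of mean log2(TPM + 1), Src, Ptpn12 and Rhbdf1 were at -0.12, -0.04 and -0.62, below 0.

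**Figure D5:**
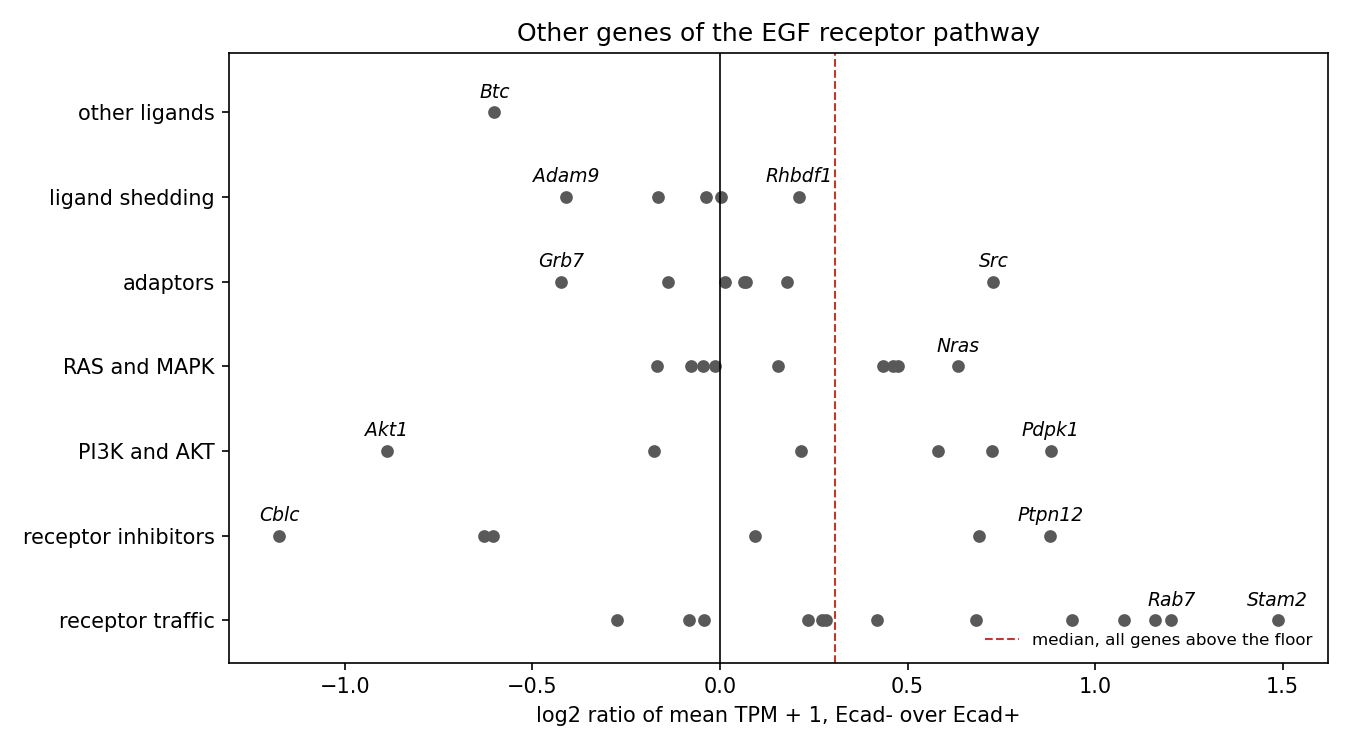
Log2 ratio of mean TPM + 1, Ecad- over Ecad+, for the 47 other pathway genes above the floor, in rows by role, with the median of the 7227 genes above the floor as a dashed line at 0.31. Receptor traffic genes hold the ratios past 1 (up to 1.49 for Stam2), and Cblc the only one below -1.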

How the data were processed

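Single-cell libraries were made on a Fluidigm C1 with SMARTer amplification and Nextera XT, per the labels' protocols, without molecular identifiers or strand marking. FastQC 0.11.5, kallisto (no version) and build mm10 are named in the submitters' processing notes, whereas the transcript index is not given in the sources used here. For 28987 genes and 202 libraries, log2 values were deposited. Taking 2 to the power of each value minus 1 gave sums of 933711 to 987134 per library, which is why they were taken as log2(TPM + 1). Read depth is not kept by TPM, and no counting error was computed for a level.

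Groups came from the labels and the 3 library sets from the suffix of the library names, whose meaning is not stated. A number in those names is lower throughout the Ecad+ libraries, and its effect and that of the sort cannot be told apart. Pairs of libraries correlating over 0.97 (5 pairs; the next closest reached 0.939) were averaged as 1 cell, and each library kept its place in its set. Of several rows with 1 symbol the one of highest mean was used, and Hras and Adgre1 were found by identifier. Ratios used a pseudocount of 1 TPM, and the floor asked for a mean of 5 TPM or more and for at least 10% of cells above 0. Named pathway genes are the other family ligands and Erbb4, and the 2 largest absolute ratios above the floor in each other list, of which 1 is not reported here. Members and lists were chosen with earlier results of these data known, and the bands of mean level (1 to 10 and 10 to 100 TPM) after the values were seen. The calculation was tested on simulated data. The EGF-like domains of the ligand proteins were not analysed here. Python 3.11.15, numpy 2.4.6, pandas 2.3.3 and scipy 1.17.1 were used.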

Additional observations from a re-analysis of the deposited data

How the results depend on the processing

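No paired analysis was possible because each sorted group is 1 sample, and no result comes from a test. The number in the library names, whose meaning is not stated, is lower throughout the Ecad+ libraries, so it pairs no libraries between the groups. Ratios were called stable when they kept their sign and moved by no more than the SD of the 3 library sets' ratios. Share gaps were called stable when they kept their sign and both shares stayed within their exact intervals over all cells. Counts were judged by a limit on their fold change. All 7 genes lay below the all-gene median in all 14 alternatives, and all were below 0 except Tgfa, which was 0.016 without library set 3. The median ratio of the 7 (-0.67) was -0.33 with a pseudocount of 10 TPM, -0.95 with a 10% trimmed mean, -1.15 as a mean of log2(TPM + 1), -0.98 centred on the all-gene median and also -0.98 rescaled without mitochondrial and ribosomal protein genes, -0.89 without set 2, -0.94 without set 3 and -0.91 without the 10% of cells with the fewest genes. The all-gene median itself was -0.28 as a mean of logs, against 0.31. At 10 TPM, 3 genes rather than 5 were lower by 20 points, and the share gap was 2.06 points for Erbb3 and 2.28 for Tgfa. The receptor sum ratio (-1.14) was -0.97 without cells under 1% mitochondrial TPM and -1.32 trimmed, and the ligand sum ratio (-0.77) was -1.06 trimmed. Of the other pathway genes, those past 1 and -1 (4 and 1) were 0 and 10 as a mean of logs, 1 and 2 centred and also 1 and 2 rescaled, and 2 and 0 without cells under 1% mitochondrial TPM, and 0 were past -1 without set 3. The cause of these moves was not tested. Of the remaining single values, 27 moved and 124 did not.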
